A study of Mus musculus with 6 samples.

Results

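Notch signalling was followed through 10 genes in the mouse aorta, chosen by gene symbol from the 29752 genes of each library: the receptors Notch1, Notch2, Notch3 and Notch4, the ligands Jag1, Jag2, Dll1 and Dll4, and the transcriptional targets Hes1 and Heyl. The libraries came from 3 PALMD+/- mice or tissue samples, heterozygous for the gene of palmdelphin, and 3 wild-type ones. Both groups were C57BL/6 aortas at an age of 15 weeks after 7 weeks of normal diet begun at 8 weeks. The labels say neither how the allele was made, nor which part of the gene it alters, nor whether each library is a separate animal, so p-values measure the spread between these libraries.

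Notch receptors are membrane proteins that are cut when a ligand on a neighbouring cell binds them. The freed intracellular part joins the DNA-binding protein RBPJ and a Mastermind coactivator and switches on repressors of the HES and HEY families. In arteries Notch1, Notch4, Dll1 and Dll4 are known mainly from the endothelium, Notch3 and Heyl from smooth muscle and pericytes, and Jag1 from both layers.

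Values are FPKM, that is, reads scaled to gene length and library depth. The number of reads by which the values had been divided was 17283951 to 18372131 per library. All 10 members had at least 1 FPKM in every library, and so passed the filter of 1 FPKM in at least 3 libraries that left 12620 genes for testing. Palmd was at 5.31, 7.19 and 6.21 FPKM in PALMD+/- and at 5.49, 7.88 and 10.1 FPKM in wild type, with overlapping groups. PALMD+/- replicate 2 stood apart from the rest (mean correlation with the other libraries 0.930, against 0.960 to 0.971). Its summed endothelial markers were at 307 FPKM, against 823 to 906 FPKM in the other 5 libraries, with Pecam1 at 72.0 FPKM. It was the lowest library for 7 of the 10 endothelial markers. The other 3 were not lowest there: Kdr, a VEGF receptor, was at 14.6 FPKM against 3.43 to 5.42 FPKM, Emcn at 5.43 FPKM against 4.25 to 5.63 FPKM and Cldn5 at 45.0 FPKM against 40.4 to 98.2 FPKM in the other 5. Its smooth muscle markers were the lowest, at 4766 FPKM against 7111 FPKM or more, and its white adipocyte markers the highest, at 1793 FPKM against 402 to 1462 FPKM. All 10 endothelial and all 8 smooth muscle markers were at 1 FPKM or above in every library. The smooth muscle sum consists mostly of Acta2, at 3701.1 to 8367.5 FPKM, while Tagln was at 2.12 to 4.29 FPKM. Ratios to this sum are thus largely ratios to Acta2. Schwann cell markers summed to 76.9 FPKM in PALMD+/- replicate 2 and to 14.0 to 23.0 FPKM in the others. Values without this library are therefore given beside those of all 6.

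The promoter-proximal sequences of the members whose groups did not overlap are shown first, for the ligand Dll1 and the receptor Notch1. Each run is the 250 bases before the RefSeq start (GRCm38.p6), read 5′ to 3′ on the minus strand, chr17:15376933-15377182 for Dll1 and chr2:26503823-26504072 for Notch1. The Notch1 start used there lies inside the gene as GENCODE draws it, downstream of its outermost start. Capitals mark the letters ACAAT or their reverse complement ATTGT, the core bound by SOX factors.

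Dll1: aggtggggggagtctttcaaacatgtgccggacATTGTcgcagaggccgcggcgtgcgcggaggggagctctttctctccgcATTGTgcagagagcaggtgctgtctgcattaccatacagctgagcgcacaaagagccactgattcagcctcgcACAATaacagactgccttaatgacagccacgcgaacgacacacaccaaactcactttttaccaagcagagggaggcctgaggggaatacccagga
Notch1: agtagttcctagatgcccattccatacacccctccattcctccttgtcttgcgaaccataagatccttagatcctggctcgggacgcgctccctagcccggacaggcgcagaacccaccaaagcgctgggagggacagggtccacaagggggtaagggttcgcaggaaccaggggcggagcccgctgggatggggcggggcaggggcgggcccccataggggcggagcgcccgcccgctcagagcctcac

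The Dll1 run holds 3 such matches and the Notch1 run 0. Of the 9 windows of 8 members, 3 hold at least 1 match, those of Jag1 and Notch4 with 1 each being the others, and the groups of Jag1 and Notch4 overlapped. The letters were chosen after the Sox18 values given further on and these sequences had been seen. Of 32851 RefSeq windows of 300 bases (250 before and 50 after a start), 31% hold at least 1 match on either strand and 1.87% hold 3 or more. A second Dll1 start, inside the gene, has 0 matches in its window. The RBPJ core TGGGAA (reverse complement TTCCCA), found in 25.6% of all windows, was in 0 of the 9 windows of the 8 members that have an entry, and the E-box CACGTG bound by HEY factors, found in 7.15%, in 0 of them. Hes1 and Heyl have no entry. A match is a run of letters and not a bound site, and the absence of these letters covers only the windows searched.

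The heterozygote and wild-type aortas were compared to ask whether receptors, ligands or targets of the pathway stood at different levels. None of the 10 members passed the threshold of the comparison in either direction (limma on log2(FPKM + 1), Benjamini-Hochberg adjusted p of 0.616 to 0.974). Of all 12620 genes tested, 0% passed it. At an unadjusted p under 0.05 there were 2 members, Dll1 and Notch1, both lower in PALMD+/-, against 6.5% of all tested genes, and 2.44% for lower values alone. The same 2 members were the ones whose groups did not overlap, again both lower, where 12.9% of all tested genes had groups that did not overlap and 5.12% had them lower and 7.8% higher. The median log2 fold change of the 10 members was -0.12, and -0.10 without PALMD+/- replicate 2, beside 0.01 and 0.03 over all genes tested.

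**Figure D1:**
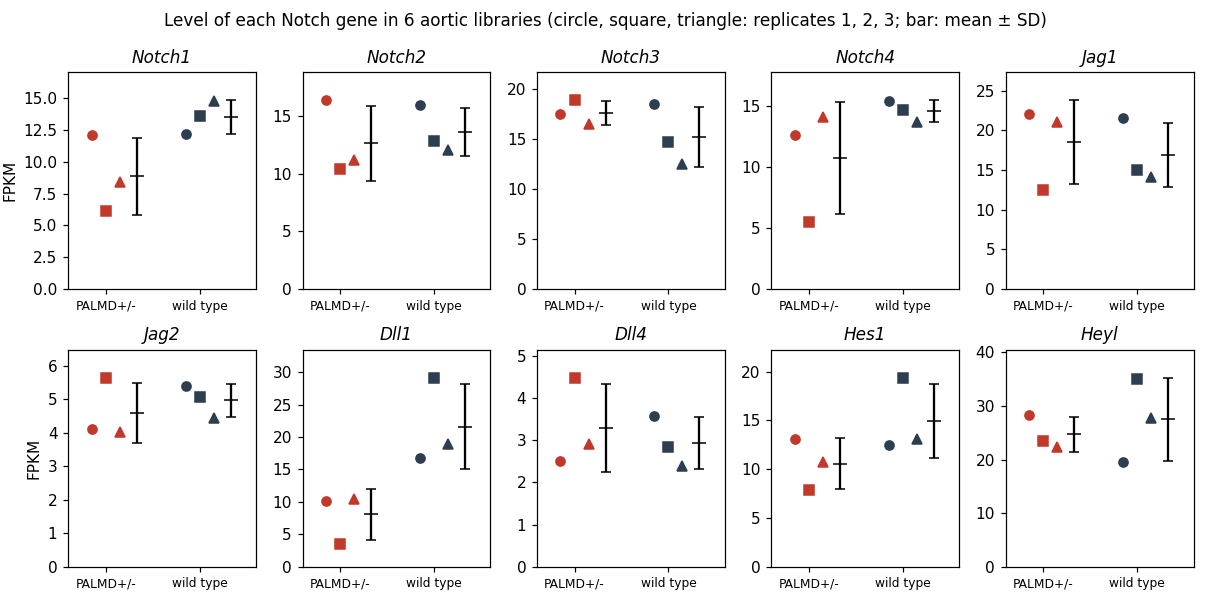
FPKM of each of the 10 Notch genes (vertical axes, each starting at 0) in the 3 PALMD+/- and 3 wild-type libraries, with replicates 1, 2 and 3 as circle, square and triangle and the mean ± SD beside them. Dll1 lies between 3.58 and 10.4 FPKM in PALMD+/- and between 16.7 and 29.1 FPKM in wild type, and PALMD+/- replicate 2 (red square) is the lowest library for 6 of the 10 genes.

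Among the ligands, Dll1, a Delta-type ligand of arterial endothelium, gave the smallest p of the members. Values here and below are listed in the order of replicates 1, 2 and 3. The gene (ENSMUSG00000014773, GRCm38 chromosome 17, 15367354 to 15376872, minus strand) was at 10.2, 3.58 and 10.4 FPKM in PALMD+/- and at 16.7, 29.1 and 19.0 FPKM in wild type. All 3 heterozygote libraries lay below all 3 wild-type libraries, with replicate 2 of each group at the extremes. The means were 8.06 ± 3.88 FPKM in PALMD+/- and 21.6 ± 6.59 FPKM in wild type (SD, n = 3 each), the first being 37.3% of the second. On the log2(FPKM + 1) scale the difference was -1.40 with an SE of 0.40 and a 95% interval of -2.35 to -0.44. Its limma adjusted p was 0.616, and it stood at place 218 by p among the genes tested. The exact two-sided permutation p was 0.1, the smallest that 3 libraries against 3 allow. The values rest on 786, 261 and 801 reads in PALMD+/- and on 1291, 2255 and 1440 reads in wild type, so counting error is small beside the spread between libraries. A long noncoding RNA on the opposite strand, A930024N18Rik, shares 867 exonic bases with Dll1 and was at 0.140 to 0.263 FPKM. The library kit is not described as keeping strand, so reads of the pair cannot be told apart there. The limit holds for other members too. Notch1 shares 1068 exonic bases with 0610009E02Rik, at 0.0604 to 0.339 FPKM, and 414 with Gm13568, at 0 FPKM. Dll4 shares 214 exonic bases with Gm14207, at 0.369 to 0.727 FPKM. Notch2 and Notch3 also share exonic bases with other genes.

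Dll1 was also set against the endothelial markers of the same library, a ratio chosen after its values had been seen. In a bulk sample, fewer cells of a type and less RNA per cell cannot be told apart. Per 100 FPKM of the 10 summed endothelial markers, Dll1 was at 1.21, 1.17 and 1.22 in PALMD+/- replicates 1 to 3 and at 1.85, 3.54 and 2.28 in wild type replicates 1 to 3. The heterozygote ratios lay close together, including that of replicate 2 with its low endothelial level, and below every wild-type ratio (means 1.20 ± 0.0271 in PALMD+/- and 2.55 ± 0.876 in wild type, exact two-sided permutation p = 0.1, smallest possible 0.1). The endothelial sums were 844, 307 and 854 FPKM in PALMD+/- and 906, 823 and 832 FPKM in wild type, and Pecam1 makes up a large part of them. Single markers were low in PALMD+/- replicate 2 by unlike amounts. Pecam1 was at 375, 72.0 and 352 FPKM in PALMD+/- and Cdh5 at 76.5, 52.6 and 79.6 FPKM. The closeness of the heterozygote ratios is therefore that of this sum. The difference of the mean ratios was -1.36, and -0.865 without wild type replicate 2, the library with the highest ratio. Of the 10 members, 2 had ratios to the endothelial markers that did not overlap between the groups, Dll1, which was lower in PALMD+/-, and Jag1, which was higher. To the smooth muscle markers 2 had such ratios, Dll1 and Notch4, both lower. The share of all tested genes with such ratios was not computed, so these counts have no background to be read against. Without PALMD+/- replicate 2 the log2 fold change of Dll1 was -0.96 (limma adjusted p = 0.245), and with the mean endothelial marker level as a covariate it was -0.91 (limma adjusted p = 0.237). That covariate, centred on the log2 scale, was -0.696 in PALMD+/- replicate 2 and 0.0869 to 0.2007 in the other libraries. It thus mostly sets that library apart, and these 2 settings are not separate checks. Adjusting for the white adipocyte markers instead gave -1.51 (limma adjusted p = 0.0653).

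Jag1, a ligand made by endothelium and smooth muscle (ENSMUSG00000027276, chromosome 2, 137081456 to 137116644, minus strand), was at 22.1, 12.4 and 21.0 FPKM in PALMD+/- and at 21.6, 15.0 and 14.2 FPKM in wild type. High and low values occurred in both groups, which overlapped. The 3 libraries highest in Jag1 were the 3 lowest in white adipocyte markers, which summed to 402, 1793 and 592 FPKM in PALMD+/- and to 625, 995 and 1462 FPKM in wild type. The same 3 libraries were also the highest in endothelial and in smooth muscle markers. Smooth muscle markers summed to 10026, 4766 and 10270 FPKM in PALMD+/- and to 10023, 8840 and 7111.5 FPKM in wild type. The log2 fold change of Jag1 was 0.11 (SE 0.26, limma adjusted p = 0.974), and its size depended on the setting. It was 0.03 with the white adipocyte covariate, 0.41 with the endothelial covariate (limma adjusted p = 0.316) and 0.36 without PALMD+/- replicate 2 (limma adjusted p = 0.418). Per 100 FPKM of endothelial markers Jag1 was at 2.61, 4.05 and 2.46 in PALMD+/- and at 2.38, 1.82 and 1.70 in wild type. These ratios did not overlap (exact two-sided permutation p = 0.1, smallest possible 0.1), PALMD+/- replicate 2 standing apart, and the difference of the means was 1.07, and 0.570 without it.

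Dll4, the Delta ligand of arterial endothelium and sprouting tip cells (ENSMUSG00000027314, chromosome 2, 119325784 to 119335962), had the lowest mean of the members in both groups. It was at 2.50, 4.48 and 2.90 FPKM in PALMD+/- and at 3.58, 2.84 and 2.38 FPKM in wild type, on 165 to 298 reads. PALMD+/- replicate 2, the library with the lowest endothelial marker level, had the highest Dll4, and the groups overlapped (log2 fold change 0.11, SE 0.20, limma adjusted p = 0.962, and -0.08 without that library). Kdr was likewise highest there. Jag2 (ENSMUSG00000002799, chromosome 12, 112907819 to 112929776, minus strand) was at 4.12, 5.64 and 4.03 FPKM in PALMD+/- and at 5.41, 5.06 and 4.45 FPKM in wild type. Its groups overlapped too, with the heterozygotes holding both the highest and the lowest value (log2 fold change -0.10, SE 0.14, limma adjusted p = 0.952, and -0.23 without PALMD+/- replicate 2).

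Ligand composition was compared as the share of each gene in the summed FPKM of the 4 ligands, which does not depend on scaling between libraries. Jag1 made up 56.8%, 47.6% and 54.8% in PALMD+/- replicates 1 to 3 and 45.6%, 28.8% and 35.5% in wild type replicates 1 to 3. Every heterozygote share was above every wild-type share, by a difference of the means of 16.4 percentage points (exact two-sided permutation p = 0.1, smallest possible 0.1). Since the shares sum to the whole, this mirrors Dll1, which made up 26.2%, 13.7% and 27.1% in PALMD+/- and 35.4%, 56.0% and 47.5% in wild type. Jag1 exceeded Dll1 in 3 of 3 heterozygote libraries, by ratios of 2.16, 3.47 and 2.02, and in 1 of 3 wild-type libraries, where the ratios were 1.29, 0.515 and 0.747. The summed ligand level was 38.9, 26.1 and 38.3 FPKM in PALMD+/- and 47.3, 52.0 and 39.9 FPKM in wild type (exact two-sided permutation p = 0.1). The groups did not overlap, by a small margin of 38.9 against 39.9 FPKM. This sum includes Dll1 and so is no separate result, and the groups of Jag1, Jag2 and Dll4 each overlapped.

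**Figure D2:**
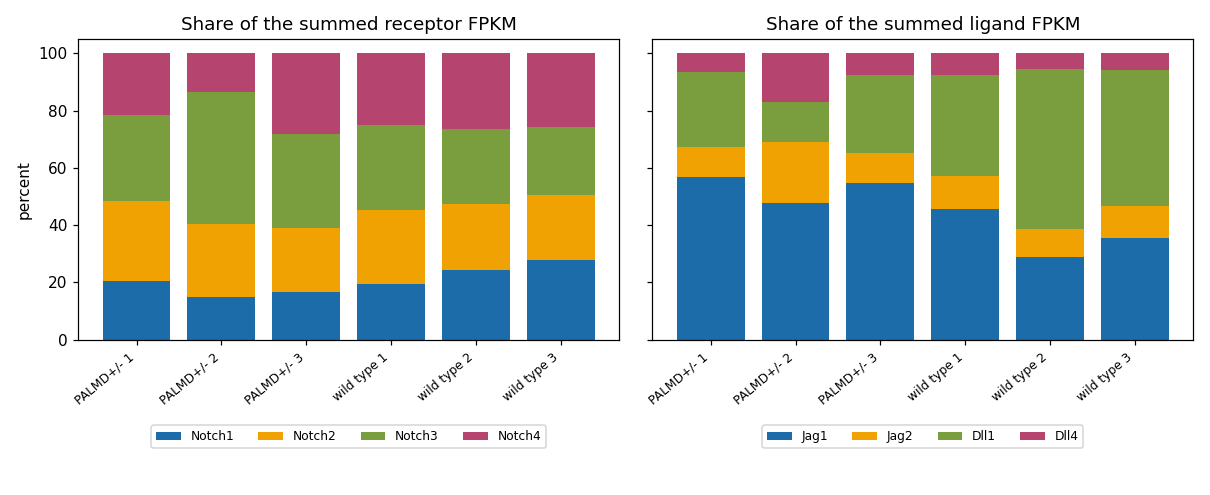
Share of each gene (percent, stacked bars to 100) in the summed FPKM of the 4 receptors and of the 4 ligands, for PALMD+/- replicates 1 to 3 and then wild type replicates 1 to 3. The green Dll1 segment covers 13.7% to 27.1% of the ligand bars in PALMD+/- and 35.4% to 56.0% in wild type, and the green Notch3 segment is widest in PALMD+/- replicate 2, at 46.2% of the receptor bar.

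Among the receptors, Notch1, which has roles in endothelium and many other tissues (ENSMUSG00000026923, chromosome 2, 26457903 to 26516663, minus strand), was at 12.1, 6.09 and 8.37 FPKM in PALMD+/- and at 12.1, 13.6 and 14.8 FPKM in wild type. The groups did not overlap, but PALMD+/- replicate 1 and wild type replicate 1 were nearly equal, with 3146 and 3157 reads. The means were 8.86 ± 3.04 FPKM in PALMD+/- and 13.5 ± 1.32 FPKM in wild type (SD, n = 3 each). The log2 fold change of Notch1 was -0.60, with an SE of 0.23, a 95% interval of -1.14 to -0.06 and a limma adjusted p of 0.734. It was -0.38 without PALMD+/- replicate 2 (limma adjusted p = 0.369). Per 100 FPKM of endothelial markers Notch1 was at 1.43, 1.99 and 0.981 in PALMD+/- and at 1.34, 1.65 and 1.78 in wild type, with overlap between the groups.

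Notch4, a receptor largely restricted to endothelium (ENSMUSG00000015468, chromosome 17, 34564268 to 34588503), was at 12.6, 5.51 and 14.1 FPKM in PALMD+/- and at 15.4, 14.7 and 13.7 FPKM in wild type. One library, PALMD+/- replicate 2, was far below the other 5, and the groups overlapped (log2 fold change -0.50, SE 0.31, limma adjusted p = 0.862). Without that library the log2 fold change was -0.12, and with the endothelial covariate -0.05. Per 100 FPKM of smooth muscle markers Notch4 was at 0.126, 0.116 and 0.138 in PALMD+/- and at 0.154, 0.167 and 0.192 in wild type, without overlap (exact two-sided permutation p = 0.1, smallest possible 0.1). Per 100 FPKM of endothelial markers Notch4 was at 1.50, 1.79 and 1.66 in PALMD+/- and at 1.70, 1.79 and 1.64 in wild type. The endothelial ratios spanned a narrow range in all 6 libraries, although the Notch4 levels themselves differed by a fold of 2.80 between the highest and the lowest library. Dll1 and Notch4 both had their lowest level in the library with the lowest endothelial level. The groups overlapped in the endothelial ratio of Notch4 and not in that of Dll1, with no background share to read this against. The difference between the 2 genes was not tested, nor was a cause of it.

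**Figure D3:**
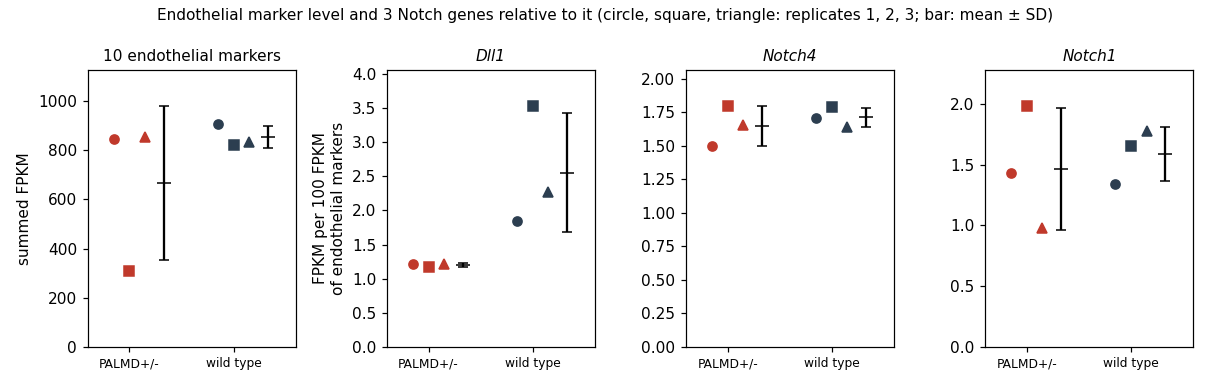
Left panel, summed FPKM of the 10 endothelial markers, and the other panels, Dll1, Notch4 and Notch1 per 100 FPKM of those markers in the same library, with replicates 1, 2 and 3 as circle, square and triangle and the mean ± SD beside them. The Dll1 ratio lies between 1.17 and 1.22 in PALMD+/- and between 1.85 and 3.54 in wild type, and the Notch4 ratio between 1.50 and 1.79 over all 6 libraries.

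Notch3, the receptor of arterial smooth muscle and pericytes (ENSMUSG00000038146, chromosome 17, 32120820 to 32166852, minus strand), was at 17.5, 18.9 and 16.5 FPKM in PALMD+/- and at 18.5, 14.7 and 12.6 FPKM in wild type. It was highest in PALMD+/- replicate 2, the library with the lowest smooth muscle markers, and the groups overlapped (log2 fold change 0.21, SE 0.15, 95% interval -0.15 to 0.58, limma adjusted p = 0.888, and 0.16 without that library). Per 100 FPKM of smooth muscle markers Notch3 was at 0.175, 0.397 and 0.161 in PALMD+/- and at 0.185, 0.166 and 0.177 in wild type, so that 5 libraries were alike and PALMD+/- replicate 2 was above them. As a share of the summed receptor FPKM it made up 29.9%, 46.2% and 32.9% in PALMD+/- and 29.8%, 26.3% and 23.7% in wild type. The heterozygote shares were all above the wild-type shares, PALMD+/- replicate 1 by a small margin over wild type replicate 1 (difference of means 9.74 percentage points, exact two-sided permutation p = 0.1, smallest possible 0.1). Without PALMD+/- replicate 2 that difference was 4.79 percentage points.

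Notch2, a receptor expressed in many vascular cells (ENSMUSG00000027878, on chromosome 3 like Palmd, 98013527 to 98150361), was at 16.4, 10.4 and 11.2 FPKM in PALMD+/- and at 16.0, 12.9 and 12.1 FPKM in wild type. The groups overlapped, and replicate 1 was the highest in each (log2 fold change -0.12, SE 0.19, 95% interval -0.58 to 0.34, limma adjusted p = 0.958, and 0.00 without PALMD+/- replicate 2). The summed level of the 4 receptors was 58.6, 40.9 and 50.2 FPKM in PALMD+/- and 62.0, 55.9 and 53.1 FPKM in wild type, with overlap.

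Of the targets, Hes1, a basic helix-loop-helix repressor induced by Notch and by other signals (ENSMUSG00000022528, chromosome 16, 30064384 to 30067796), was at 13.1, 7.90 and 10.7 FPKM in PALMD+/- and at 12.5, 19.3 and 13.1 FPKM in wild type. The lowest and the highest library were replicate 2 of each group, as for Dll1, but the groups overlapped. The means were 10.6 ± 2.59 FPKM in PALMD+/- and 15.0 ± 3.79 FPKM in wild type (log2 fold change -0.47, SE 0.23, 95% interval -1.01 to 0.08, limma adjusted p = 0.801). Without PALMD+/- replicate 2 the log2 fold change was -0.29. Heyl, a HEY-family repressor of mural cells (ENSMUSG00000032744, chromosome 4, 123233556 to 123249875), had the highest mean of the members in both groups. It was at 28.3, 23.4 and 22.3 FPKM in PALMD+/- and at 19.6, 35.0 and 27.8 FPKM in wild type. The wild-type libraries held both its lowest and its highest value (log2 fold change -0.12, SE 0.22, limma adjusted p = 0.963, and -0.09 without PALMD+/- replicate 2).

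**Figure D4:**
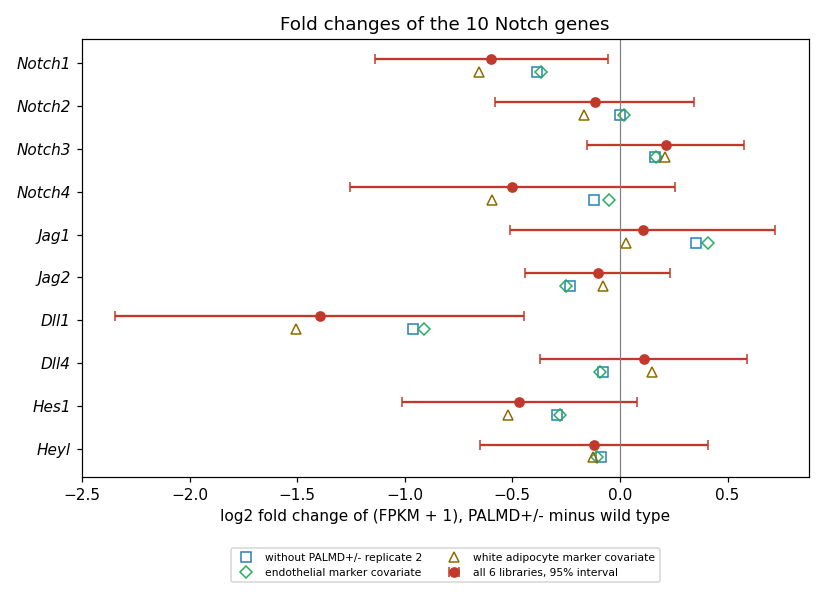
Log2 fold change of (FPKM + 1), PALMD+/- minus wild type, for the 10 Notch genes with all 6 libraries (red circles, bars are 95% intervals), and the same without PALMD+/- replicate 2 (blue squares), with the endothelial marker covariate (green diamonds) and with the white adipocyte marker covariate (brown triangles). The intervals of Dll1 (-2.35 to -0.44) and Notch1 (-1.14 to -0.06), which are not adjusted for the number of genes, lie below 0, and the values of Notch4 move from -0.50 to -0.12 and -0.05 in the first and second of these settings. In the second, the covariate mostly sets PALMD+/- replicate 2 apart from the other libraries, so it is no separate check from the first.

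Ordered by mean level, which FPKM allows because they are per length, the heterozygotes ran from Heyl, Jag1, Notch3, Notch2, Notch4, Hes1, Notch1, Dll1 and Jag2 down to Dll4, and the wild type from Heyl, Dll1, Jag1, Notch3, Hes1, Notch4, Notch2, Notch1 and Jag2 down to Dll4. Dll1 was thus the 8th of 10 in PALMD+/- and the 2nd in wild type. Most neighbours in these orders had overlapping ranges. The exceptions were Heyl over Jag1 and Notch3 over Notch2 in PALMD+/-, and Notch1 over Jag2 and Jag2 over Dll4 in wild type. PALMD+/- replicate 2 was the lowest library for 6 members (Notch1, Notch2, Notch4, Jag1, Dll1 and Hes1) and the highest for 3 (Notch3, Jag2 and Dll4).

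The genes whose levels over the 6 libraries ran most like those of Notch3 were Zfp13, Gm1976 and Efcab7 (Pearson r of log2(FPKM + 1) 0.98, 0.98 and 0.97, n = 6 libraries). For Dll4 they were 9530082P21Rik, Vps51 and B4galt6 (0.99, 0.99 and 0.98, n = 6 libraries). They were picked as the closest of all tested genes, share the same libraries, and are given as a description only.

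Beside the members, 63 other genes were listed by role, 10 of them arterial endothelial genes that are not parts of the pathway itself. All 63 are called pathway genes here and below. Of them, 52 were tested and 0 passed in either direction (limma adjusted p of 0.548 to 0.999, beside 0% of all tested genes). Their median log2 fold change was -0.04, and 0.04 without PALMD+/- replicate 2, beside 0.01 and 0.03 over all tested genes. The groups did not overlap for 4 that were higher and 6 that were lower in PALMD+/-, 19.2% of those tested, beside 12.9% of all tested genes. The arterial endothelial genes supplied 3 of the 6 lower ones and 0 of the 4 higher ones.

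Other HES and HEY factors gave 3 tested genes of 7, of which Hes6 had groups that did not overlap. Hes6, a HES relative known to oppose HES1, was at 6.15, 7.90 and 8.60 FPKM in PALMD+/- and at 4.60, 5.09 and 4.70 FPKM in wild type. All heterozygote values were the higher ones (log2 fold change 0.55, SE 0.13, limma adjusted p = 0.548, and 0.52 without PALMD+/- replicate 2). Hey2, an arterial HEY factor, was at 21.7, 9.31 and 19.2 FPKM in PALMD+/- and at 22.3, 16.7 and 14.9 FPKM in wild type, the same order of libraries within each group as Jag1. Hey1 was at 2.90, 4.20 and 2.85 FPKM in PALMD+/- and at 3.65, 5.07 and 3.01 FPKM in wild type. Hes2, Hes3, Hes5 and Hes7 did not exceed 0.170 FPKM in any library.

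Of 10 arterial endothelial genes, all tested, 3 (Sox18, Nrp1 and Acvrl1) had all heterozygote values below the wild-type values and 0 had them above, beside 5.12% of all tested genes below and 7.8% above. Sox18, a SOX factor of endothelium, was at 46.1, 24.6 and 44.1 FPKM in PALMD+/- and at 78.2, 83.2 and 73.0 FPKM in wild type. Every heterozygote library was below every wild-type library (log2 fold change -1.06, SE 0.25, limma adjusted p = 0.548, and -0.78 without PALMD+/- replicate 2). Its relatives Sox17 and Sox7 overlapped between the groups, at log2 fold changes of -0.08 and -0.34. Nrp1, a coreceptor for VEGF and semaphorins, was at 11.9 ± 0.639 FPKM in PALMD+/- and 14.8 ± 0.711 FPKM in wild type (SD, n = 3 each, log2 fold change -0.30, SE 0.09, limma adjusted p = 0.637). Acvrl1, a BMP receptor of endothelium named here because its groups did not overlap, had a log2 fold change of -0.53, and -0.14 without PALMD+/- replicate 2. The chemokine receptor Cxcr4 was at 1.91, 9.60 and 4.06 FPKM in PALMD+/- and at 2.84, 1.90 and 1.29 FPKM in wild type, highest in the library with the lowest endothelial markers.

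**Figure D5:**
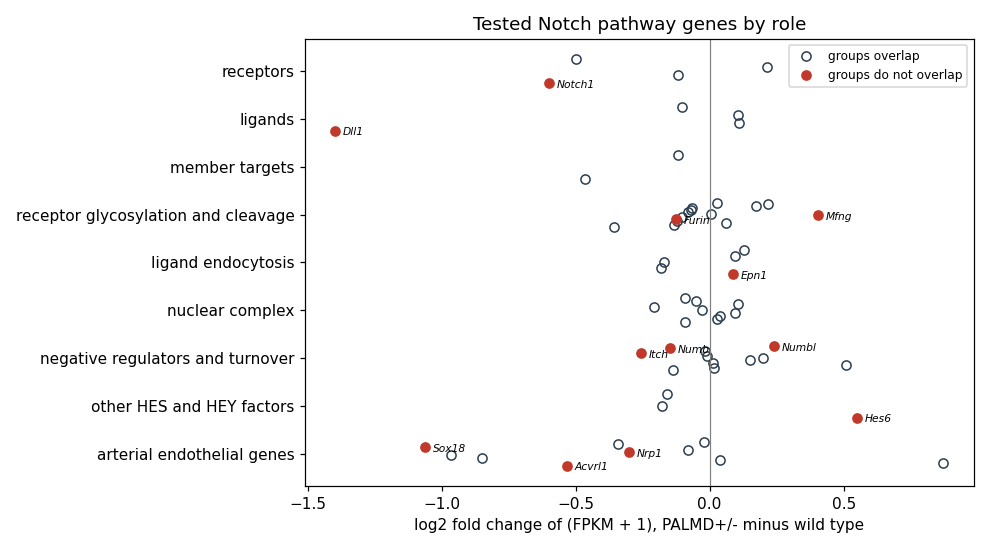
Log2 fold change of (FPKM + 1), PALMD+/- minus wild type, for each tested member and pathway gene, one row per role, with filled red points where the 3 heterozygote and 3 wild-type libraries did not overlap and open points where they did. Dll1 (-1.40) and Sox18 (-1.06) lie farthest to the left, and among the filled points Hes6 (0.55) lies farthest to the right.

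Receptor maturation and cleavage was represented by 15 genes, 14 of them tested. Mfng, a Fringe enzyme that adds sugar to the receptor and changes which ligand it answers, was at 12.4, 21.2 and 13.2 FPKM in PALMD+/- and at 12.0, 10.2 and 11.4 FPKM in wild type. All heterozygote values were above the wild-type values, with replicate 2 apart from the other 2 of its group (log2 fold change 0.41, SE 0.20, limma adjusted p = 0.808, and 0.18 without it). Furin, the convertase of the first cleavage, was at 15.0 ± 0.603 FPKM in PALMD+/- and 16.5 ± 0.159 FPKM in wild type, without overlap (log2 fold change -0.13, limma adjusted p = 0.883). The gamma-secretase subunits Psenen and Psen2 overlapped between the groups, at log2 fold changes of 0.22 and 0.17. Of the 5 tested genes of ligand endocytosis, the smallest p was that of the ubiquitin ligase Mib1 (log2 fold change -0.17, limma adjusted p = 0.865), and Epn2, Epn1 and Mib2 had log2 fold changes of -0.18, 0.09 and 0.09. Only Epn1 among them had no overlap between groups.

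In the nuclear complex, 9 of 10 genes were tested and the groups overlapped for all 9. The DNA-binding partner Rbpj was at 7.74, 5.63 and 6.45 FPKM in PALMD+/- and at 6.56, 5.46 and 6.07 FPKM in wild type (log2 fold change 0.11, SE 0.13, limma adjusted p = 0.944). Ep300, an acetyltransferase, had a log2 fold change of -0.09 and the coactivator Maml1 one of 0.09. Among 11 tested negative regulators and turnover genes, the ubiquitin ligase Itch was at 5.95 ± 0.756 FPKM in PALMD+/- and 7.28 ± 0.412 FPKM in wild type (log2 fold change -0.26, SE 0.11, adjusted p = 0.770 by limma). The Numb relative Numbl was at 8.90 ± 0.908 FPKM in PALMD+/- and 7.36 ± 0.432 FPKM in wild type (log2 fold change 0.24, SE 0.11, limma adjusted p = 0.771). Dtx1 and Numb had log2 fold changes of 0.51 and -0.15, where Numb had no overlap between groups and moved to -0.05 without PALMD+/- replicate 2. Itch and Numbl had no overlap between groups either. The feedback inhibitor and direct target Nrarp was below the filter, at 0.954, 0.336 and 0.869 FPKM in PALMD+/- and at 0.572, 1.54 and 1.70 FPKM in wild type. The remaining ligand relatives Dll3, Dlk1 and Dlk2 did not exceed 0.982 FPKM in any library and were not tested.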

How the data were processed

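The authors deposited 1 table per library with FPKM values, that is, counts divided by gene length and library depth. Which program counted, over which annotation, and whether it counted reads or fragments is not given in the sources used here. Tools listed in the submitters' processing notes are Bowtie2 2.2.3, HISAT2 2.1.0 and TopHat2, with the build GRCm38 and no roles. The unit was checked against GENCODE M21 (GRCm38) exon-union lengths: among genes with up to 50 reads, 94.5% to 94.8% of the values were whole multiples of 1 read within 0.01 reads, and for 9 of the 10 members (not Notch3) all 6 values were. FPKM of different libraries depend on the whole composition of each library, so a large tissue admixture moves every gene. Replicate numbers were taken from the titles, since column headers give the heterozygote libraries other numbers.

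limma 3.58.1 (R 4.3.3, mean-variance trend) was fitted on log2(FPKM + 1), PALMD+/- minus wild type, over the 12620 genes that reached 1 FPKM in 3 or more libraries, with Benjamini-Hochberg adjustment over these genes and a threshold of 0.05, and tested on simulated data. Fold changes on this scale understate those of low genes. Shares and ratios were compared by exact two-sided permutation. Python 3.11.15, numpy 2.4.6, pandas 2.3.3 and matplotlib 3.10.9 were used. Promoter sequences are RefSeq's (GRCm38.p6). The members and gene lists were chosen with earlier results of these data known. The genes named were all members, the 4 tested genes of each pathway list with the smallest p, and the 3 genes most like Notch3 and Dll4, except 1 pathway gene that is not reported here. Other pathway genes are named because their groups did not overlap or they fell below the filter, and Sox17 as a relative of Sox18. Alternatives were other pseudocounts, no filter, other scalings, a replicate block, marker covariates, leaving out each library, and limma voom on recovered reads, the last chosen after seeing the data.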

Additional observations from a re-analysis of the deposited data

How the results depend on the processing

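Of the 10 members, 0 passed the threshold under any of the 15 alternatives, nor did any of the pathway genes. Dll1 kept a negative log2 fold change under all 15 (-1.62 to -0.91, limma adjusted p of 0.0653 to 1.00), as did Notch1 (-0.83 to -0.37), Notch4 (-0.73 to -0.05), Hes1 (-0.62 to -0.28) and Jag2 (-0.25 to -0.03), and Notch3 kept a positive one (0.09 to 0.35). Directions turned for 4 members whose values were near 0. With the endothelial covariate Notch2 was at 0.0195 and Dll4 at -0.0946. With each library left out, Notch2 ranged from -0.3045 to 0.000255 (above 0 without PALMD+/- replicate 2) and Dll4 from -0.0784 (without that library) to 0.244. Jag1 ranged from -0.0358 to 0.3551, below 0 without PALMD+/- replicate 1 (-0.0358) or 3 (-0.0014) or wild type replicate 3 (-0.0023), and Heyl from -0.335 to 0.0695, above 0 without wild type replicate 2. Over all genes 0 were called with all libraries, 1 with the endothelial covariate, and between 0 and 1 with each library left out, none of them a Notch pathway gene. With limma voom on recovered reads 0 were called. Genes at an unadjusted p under 0.05 numbered 820 of 12620 with all libraries, 851 with voom, 432 without wild type replicate 3, 451 without wild type replicate 2, 1762 without PALMD+/- replicate 2, 2018 with the endothelial and 2313 with the white adipocyte covariate, and 1360 of 27132 with no filter. Members among them were 2 with all libraries, 4 with the adipocyte covariate (Dll1, Notch1, Notch4 and Hes1), 3 without PALMD+/- replicate 1, and 1 with the endothelial covariate, the replicate block, equal summed values, or without PALMD+/- replicate 2 or 3 or wild type replicate 2 or 3. Pathway genes were 3 of 52 with all libraries, 2 of these 3 being arterial endothelial genes, and 16 with the adipocyte covariate. The Jag1 share difference ranged from 12.5 to 20.9 percentage points and the Notch3 share difference from 4.79 to 12.97 when each library was left out, and the Dll1 ratio difference from -1.71 (without wild type replicate 1) to -0.865 (without wild type replicate 2). Scaling alternatives moved the median of all genes by less than 0.1 on the log2 scale. Same-numbered libraries had correlations of their deviations from the group means of 0.51, -0.09 and -0.34. Differently numbered ones had correlations of -0.54 to 0.55. With 3 libraries per group these values cannot show whether the numbers pair the libraries. With the replicate block 0 genes and 0 members were called, the log2 fold change of Dll1 was -1.40 (limma adjusted p = 0.818), and the exact sign-flip p was 0.25, the smallest possible, for both share differences and the Dll1 ratio.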
